A study of Nothobranchius furzeri with 20 samples.

Results

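Swim-tunnel exercise was compared with no exercise in the livers of 9-week-old male turquoise killifish, Nothobranchius furzeri, of the strain MZM-04/10p. These 10 libraries, 5 from exercised and 5 from unexercised fish, were taken by their labels from the 20 of the series, and the 10 libraries at 27 weeks, all labelled as exercised, stayed out of the fit. Strain, sex, age and tissue are the same in both 9-week groups, and only the perturbation label, swim-tunnel or none, differs. The labels give no duration or intensity of swimming, no day of collection and no pairing. Whether each library is a different fish is not stated, and p-values therefore refer to variation among libraries, which may be technical. The groups bear consecutive sample titles with no mixing between them, so that anything that follows the title order cannot be told apart from exercise. The 27-week titles form a lower-numbered run (replicates 1 to 5) and a higher-numbered run (replicates 6 to 10) under the same labels.

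The turquoise killifish is an annual fish with a short natural lifespan that is kept as a model of vertebrate ageing. A swim tunnel makes a fish swim against a set current, which loads the swimming muscle in the way treadmill running does in mammals. The liver supplies glucose and lipids to working muscle, secretes most plasma proteins, makes bile and clears toxic compounds. A small number of secretory and metabolic transcripts therefore makes up much of the RNA in a fish liver, while transcripts of blood, immune, endothelial and dividing cells enter bulk liver RNA at low levels. In such bulk samples, fewer cells of a type and less RNA per cell cannot be told apart.

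The gene identifiers could not be joined to gene names: 0 of 26739 matched the RefSeq gene table of assembly NfurGRZ-RIMD1. Genes are therefore described by abundance, length and behaviour across libraries, 4 of them are given by identifier, and the liver label could not be checked against marker genes. No sequence could be attached to an identifier either.

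Depth ran from 34.0 to 38.8 M counts (M, mega) in exercised and from 22.4 to 38.4 M in unexercised livers. All 20 pairs of libraries within a group differed by more than counting noise, with a lowest chi-square of 41.4 per degree of freedom. Of the 16304 genes with enough counts to test, the median gene had 7.28 CPM (counts per 1000000 counts of the library, TMM-scaled).

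The 9-week libraries separated only in part by group. The first principal component of log2 CPM held 27.1% of the variance. Unexercised replicates 1, 2, 3 and 5 had scores between -43.2 and -28.8 on it, exercised replicates 1, 2, 3 and 4 between 15.5 and 49.3. The remaining libraries lay between these sets and crossed over, with exercised replicate 5 at -8.62 and unexercised replicate 4 at 4.42. Correlations of log2 CPM ran from 0.945 to 0.977 (median 0.957) between exercised libraries, from 0.942 to 0.969 (median 0.956) between unexercised libraries and from 0.929 to 0.967 (median 0.945) across the groups. Exercised replicate 5 was the only library of the 10 whose nearest neighbour was in the other group, unexercised replicate 1 (r = 0.967).

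**Figure D1:**
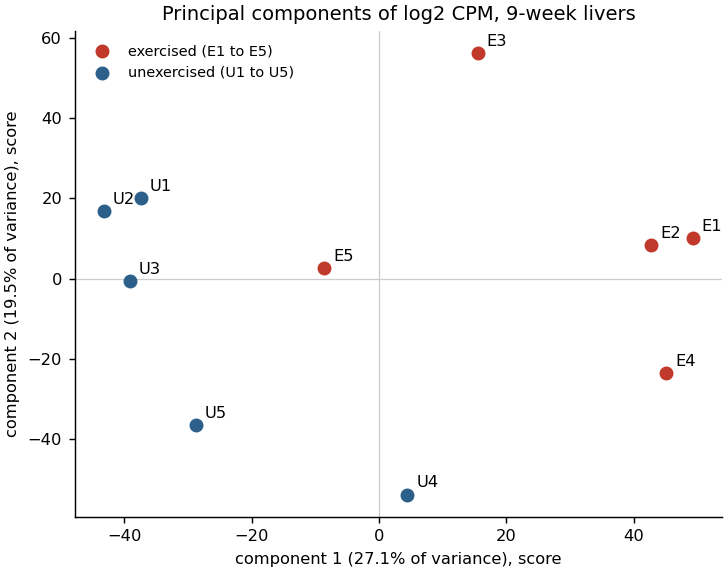
Scores of the 10 libraries at 9 weeks on the first (x) and second (y) principal component of log2 CPM, 1 point per library, E1 to E5 exercised and U1 to U5 unexercised. On the first component E5 (-8.62) and U4 (4.42) lie between the other libraries of the groups.

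The groups differed in 1261 of 16304 genes, 7.73% of those tested. Of these, 467 rose with exercise (2.86%) and 794 fell (4.87%), with edgeR's quasi-likelihood test and a Benjamini-Hochberg adjusted p under 0.05. Among called genes, the falls were the larger changes. Their median log2 fold change was -0.84 (quartiles -1.55 and -0.58), and 331 of them (41.7%) exceeded a 2-fold change. The rises had a median of 0.59 (quartiles 0.46 and 0.84), and 73 of them (15.6%) exceeded 2-fold. More than 4-fold changes were found in 12 rises and 107 falls. Sizes differed by mean CPM. The median rise and fall were 1.33 and -1.81 under 1 CPM and 0.74 and -1.04 at 1 to 10 CPM. They were 0.52 and -0.58 at 10 to 100 CPM and 0.56 and -0.84 at 100 to 1000 CPM. The smallest sizes called in these classes were 0.73, 0.34, 0.26 and 0.37. The part of level in the contrast of sizes was not tested.

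Every exercised library lay above every unexercised one in 565 genes (3.47% of those tested) and below every one in 827 (5.07%). Of the genes that rose, 337 of 467 showed this separation, as did 624 of the 794 that fell. The calls and the separation come from the same libraries, so their overlap is no further test. Among all 26739 identifiers, tested or not, none was counted in all 5 exercised libraries and in 0 unexercised ones. Of the same identifiers, 2 were counted in all 5 unexercised and in 0 exercised libraries.

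With TMM scaling, the direction of the calls differed by abundance. Of the 179 genes over 1000 CPM, 16 rose (8.94%) and 0 fell, and between 100 and 1000 CPM 49 of 729 rose (6.72%) and 7 fell (0.96%). Between 10 and 100 CPM, 255 of 5978 genes rose (4.27%) and 268 fell (4.48%). Of the 7217 genes at 1 to 10 CPM, 1.83% rose and 6.37% fell (460 genes), and under 1 CPM 15 of 2201 rose (0.682%) and 59 fell (2.68%). Rises were found in genes with a median of 17.5 CPM and falls in genes with a median of 5.63 CPM. When libraries were scaled by their totals, 6 genes rose and 0 fell over 1000 CPM, but falls outnumbered rises in every lower class: 10 rose and 37 fell at 100 to 1000 CPM, 41 rose and 919 fell at 10 to 100 CPM, 33 rose and 1054 fell at 1 to 10 CPM, and 5 rose and 116 fell under 1 CPM. The number called over 1000 CPM also changed with the library left out. It was 2 without exercised replicate 1 or 3, 3 without exercised replicate 2 or unexercised replicate 5, 4 without unexercised replicate 2 or 3, and 9 without exercised replicate 4. It was 30 without unexercised replicate 1 and 39 without unexercised replicate 4. Between 100 and 1000 CPM the number called was 2 to 14 without exercised replicate 1, 2 or 3 or unexercised replicate 2, 3 or 5, and 85 without unexercised replicate 1. Over all genes tested, the number called without 1 library ran from 177 to 1568. Without the filter on low counts, 6 genes were called over 1000 CPM and 34 between 100 and 1000 CPM, of 962 called among 22206 tested.

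**Figure D2:**
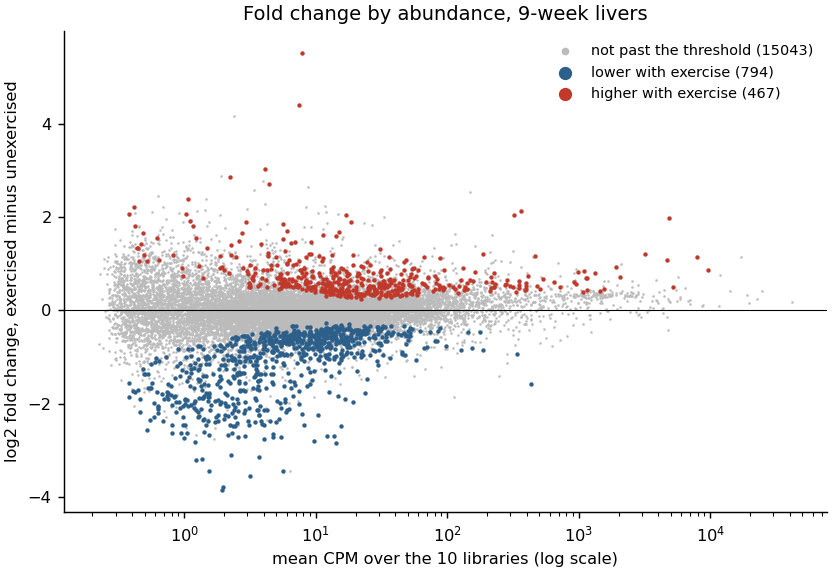
Log2 fold change (y, exercised minus unexercised) against mean CPM over the 10 libraries (x, log scale), 1 point per gene, with the 467 genes that rose in red, the 794 that fell in blue and the others in grey, with TMM scaling. The falls form a dense cloud below 100 CPM that reaches past -2, and the genes over 1000 CPM that passed the test all lie above 0.

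Together the genes that rose took 8.62% ± 1.08 of all counts with exercise and 5.74% ± 0.904 without it (SD, n = 5 per group). Exercised replicate 1 had the highest share, 10.1%, and unexercised replicate 4 the lowest, 4.60%. The genes that fell were more numerous but took 0.627% ± 0.0706 of the counts with exercise and 1.30% ± 0.240 without it (SD, n = 5 per group), with the highest share, 1.59%, in unexercised replicate 2. These shares describe genes chosen by the same difference, so their separation is no further test.

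The split by direction depended on the scaling of the libraries. When libraries were scaled by their totals instead of TMM, the median log2 fold change of all genes tested moved from 0.01 to -0.25, and 95 genes rose and 2126 fell, 4.28% against 37.0% of calls in the upward direction. TMM factors were 0.917 ± 0.0291 with exercise and 1.10 ± 0.132 without it (SD, n = 5 per group), which gave an exact permutation p of 0.032 and an adjusted p of 0.11 over 8 library measures. The median log2 fold change of genes over 1000 CPM was 0.31 with TMM and 0.07 with totals. That of genes of 100 to 1000 CPM was 0.19 with TMM and -0.07 with totals. A change of scaling moves the log2 fold changes of all genes by nearly the same amount. Relative to the median of all genes tested, these shifts were therefore nearly equal by construction. They were 0.30 with TMM and 0.32 with totals over 1000 CPM, and 0.18 with both at 100 to 1000 CPM. All 4 scalings tried (TMM, DESeq2 size factors, upper quartile, library totals) shared 90 rises and 776 falls.

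Abundant transcripts also varied less between exercised than between unexercised libraries, a difference that was not tested. For genes over 1000 CPM the median SD of log2 CPM was 0.169 between exercised and 0.256 between unexercised libraries, and over all genes it was 0.259 and 0.284. Of the 100 most abundant genes of these libraries 90 had a positive log2 fold change with TMM scaling, 8 rose and 0 fell. Their median log2 fold change was 0.31. Over all 16304 genes tested, 50.7% were positive, 467 rose and 794 fell. With library totals 63 of the 100 were positive, 6 rose and 0 fell, against 95 and 2126 over all genes tested. The median of the 100 was 0.07 with totals. Relative to all genes tested it was 0.32, and 0.30 with TMM, nearly equal by construction. The DESeq2 Wald test called 35 of these 100 genes as higher and limma voom 33, against 1077 and 934 of all 16304 genes tested. The 100 genes took 51.1% ± 1.26 of counts with exercise and 47.3% ± 3.25 without it (SD, n = 5 per group). The count of this set that rose was 21 without unexercised replicate 4 and 11 without exercised replicate 5 or without unexercised replicate 1. It was 2 without exercised replicate 1 or 3, 3 without exercised replicate 2 or unexercised replicate 5, and 4 without unexercised replicate 2 or 3. Over all genes tested, 532, 591 and 498 rose without unexercised replicate 4, exercised replicate 5 and unexercised replicate 1. In the other fits named, 51 to 204 rose. These fits tested 16458 to 16567 genes.

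Among library measures, the 100 most abundant genes of each library held 51.4% ± 1.36 of counts with exercise and 47.8% ± 3.42 without it (SD, n = 5 per group, with an exact permutation p of 0.056). The mean gene length behind a count was 3026 ± 44.7 bp with and 3109 ± 60.4 bp without exercise (SD, n = 5 per group, with an exact permutation p of 0.040). The total count was 36.4 ± 2.24 M with and 30.3 ± 6.33 M without exercise (SD, n = 5 per group, with an exact permutation p of 0.063). The adjusted p of each of these over the 8 measures was 0.11, and none of the 8 passed 0.05. Their part in the gene differences was not tested.

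Gene length, derived from the deposited tables, varied little between the called sets. Genes that rose had a median length of 3077 bp and genes that fell 2670 bp, against 2811 bp for all genes tested. In 4 classes of equal size from the shortest to the longest genes, 2.45%, 2.77%, 3.39% and 2.85% rose, and 4.54%, 5.69%, 4.96% and 4.29% fell.

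The 331 genes that fell by more than 2-fold had low levels and moved together from library to library. Their median was 2.32 CPM, with the middle 80% of them from 0.733 to 9.35 CPM, and their median log2 fold change was -1.72. After subtracting group means, 2 such genes correlated on average with r = 0.28 across the 10 libraries at 9 weeks, against an average of 0.00 over all genes tested. Across the 10 libraries at 27 weeks, which had no part in choosing them, the average was 0.23 within the 2 title runs, against 0.01 over the genes tested. The points behind these averages share library and depth, and they are given as a description. The average over all genes tested was not matched for level (median 7.28 against 2.32 CPM). Scaling also removes changes that most genes share. The corresponding averages for the 73 genes that rose by more than 2-fold were 0.14 at 9 weeks and 0.05 at 27 weeks. For the 463 genes that fell by up to 2-fold they were 0.20 and 0.16, and for the 394 such rises 0.14 and 0.08.

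Unexercised replicate 2, the shallowest library, had the highest value of its group in 186 of these 331 genes and replicate 5 in 82, while replicate 4 had it in 11. Their geometric mean, on a scale set over all 20 libraries, was 3.05, 4.38, 3.63, 2.66 and 4.91 CPM in unexercised replicates 1 to 5. It was 1.04, 1.26, 1.09, 0.953 and 1.53 CPM in exercised replicates 1 to 5. Exercised replicate 5 was thus the highest of its group and unexercised replicate 4 the lowest of the other, the same libraries that crossed on the first component. That component was computed from genes that include these 331, so the match is no separate observation. At 27 weeks the geometric mean ran from 2.89 to 5.83 CPM (median 3.94) in the lower-numbered run, overlapping the range of unexercised 9-week livers, and from 1.26 to 2.24 CPM (median 1.70) in the higher-numbered run. Of the 331 genes, 241 were also called without unexercised replicate 2, 157 without unexercised replicate 5 and 78 without exercised replicate 1. Of all 16304 genes tested, 695, 459 and 177 were called in these fits. Of the 463 genes that fell by up to 2-fold, 209, 168 and 46 were. Both sets of falls were chosen in the full fit, which shares libraries with these fits. Their higher share than that of all genes is therefore no further test.

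The 73 genes that rose by more than 2-fold spanned a wider range of levels, with the middle 80% from 0.485 to 166.7 CPM. Their median, 5.99 CPM, was also below the 7.28 CPM of all genes tested. Their geometric mean was 12.8, 12.1, 11.6, 9.52 and 7.96 CPM in exercised replicates 1 to 5, and 3.48 to 4.55 CPM in unexercised livers. At 27 weeks it lay between the 9-week groups' medians of 11.6 and 3.66 CPM. It ran from 4.95 to 7.15 CPM in the lower-numbered run and from 6.37 to 7.54 CPM in the higher-numbered run. Summed instead, the same 73 genes had 13411.8 to 27383.8 CPM in the lower-numbered run and 29293.7 to 37702 CPM in the higher-numbered run. The 9-week ranges of this sum were 26247.5 to 43975.2 CPM with exercise and 10890.6 to 18725.3 CPM without it. The 9-week libraries chose both sets, so their own separation is no result. Levels in other libraries may also reflect this choice, which was not tested. The called genes of up to 2-fold lay outside both 9-week groups in the lower-numbered run. Their geometric mean there was 13.8 to 15.7 CPM for the 394 rises, against 20.5 to 23.1 CPM in unexercised livers. For the 463 falls it was 17.3 to 20 CPM, against 11.6 to 13.9 CPM. In the higher-numbered run the ranges were 23.2 to 26.8 and 10.1 to 12.3 CPM.

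**Figure D3:**
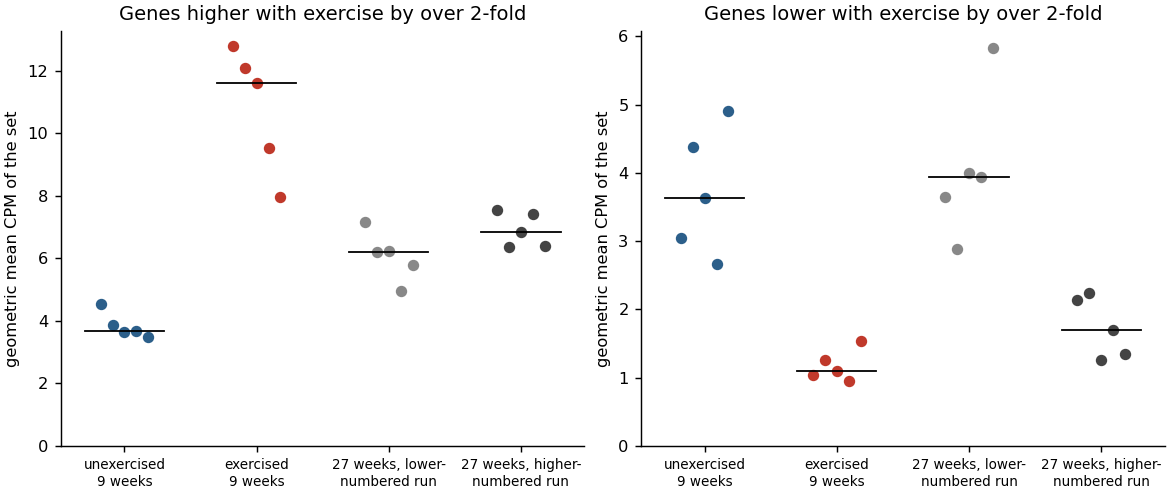
Geometric mean CPM (y) of the 73 genes that rose and the 331 genes that fell with exercise by over 2-fold, 1 point per library, with a line at the group median, on a scale set over all 20 libraries. The 9-week groups are apart because they chose the genes; among 27-week livers, the lower-numbered run reach 2.89 to 5.83 CPM in the set that fell, and the higher-numbered run stay at 1.26 to 2.24 CPM.

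In each direction 2 genes are given by identifier: the largest fold change and the highest mean CPM among called genes with separate groups and an average log2 CPM of at least 1 (317 rises and 513 falls met this). No function is stated for them, since no name is paired with the identifiers.

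Nfu_g_1_008170, the largest rise under that rule, had 35.8, 11.3, 14.5, 3.05 and 6.75 CPM in exercised replicates 1 to 5 and 1.53, 0.215, 0.925, 0.464 and 0.205 CPM in unexercised replicates 1 to 5. The rule required groups that do not overlap, and exercised libraries spread more than 10-fold. On the log2 scale exercised minus unexercised was 4.42 ± 0.76 (SE), with an edgeR adjusted p of 0.014, and it kept its call in all 10 fits that left out 1 library (3.73 to 4.99). In 27-week livers it had 18.8 to 48.3 CPM in the lower-numbered run and 21.8 to 36.3 CPM in the higher-numbered run, above the median exercised level at 9 weeks.

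Nfu_g_1_022309, the most abundant gene that rose under the rule and the 13th of all genes tested, had 14180.3, 9381, 11373, 9592 and 9576.5 CPM in exercised and 7864, 3871, 4771, 4302 and 3713 CPM in unexercised replicates 1 to 5. Unexercised replicate 1 stood well above the rest of its group and, as the rule required, below every exercised library. On the log2 scale exercised minus unexercised was 1.14 ± 0.22 (SE), with an edgeR adjusted p of 0.019. It missed the threshold without exercised replicate 1 (adjusted p = 0.055) or 3 (adjusted p = 0.051). At 27 weeks the lower-numbered run had 1503 to 4575 CPM and the higher-numbered run had 7986 to 13149.5 CPM. On that scale, set over all 20 libraries, the 9-week ranges were 9656.2 to 14544.3 CPM with exercise and 3885.9 to 8156.4 CPM without it. The higher-numbered run overlapped both ranges.

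Nfu_g_1_017566 was the largest fall under the rule. It had 4.14, 14.7, 5.07, 1.42 and 3.75 CPM in unexercised replicates 1 to 5. In exercised replicates 1 to 5 it had 0.381, 0.655, 0.419, 0.185 and 0.780 CPM. Unexercised replicate 2 stood far above the rest of its group, and the exercised counts were 6 to 29 reads. On the log2 scale exercised minus unexercised was -3.56 ± 0.61 (SE), with an edgeR adjusted p of 0.014, and without exercised replicate 1 it missed the threshold (adjusted p = 0.051). At 27 weeks the lower-numbered run had 9.49 to 25.9 CPM and the higher-numbered run had 0.611 to 4.41 CPM.

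Nfu_g_1_017949 was the most abundant gene that fell under the rule. It had 733, 505.5, 878, 499 and 597 CPM in unexercised replicates 1 to 5. In exercised replicates 1 to 5 it had 130.1, 158, 223.5, 323.5 and 234.7 CPM. The group means were 642 ± 162 and 214 ± 75.4 CPM (SD, n = 5 each), without overlap of the libraries, as the rule required. On the log2 scale exercised minus unexercised was -1.59 ± 0.26 (SE), with an edgeR adjusted p of 0.013, and the call held in all 10 fits without 1 library (-1.78 to -1.45). At 27 weeks the lower-numbered run had 457 to 1678 CPM and the higher-numbered run had 72.3 to 219 CPM.

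**Figure D4:**
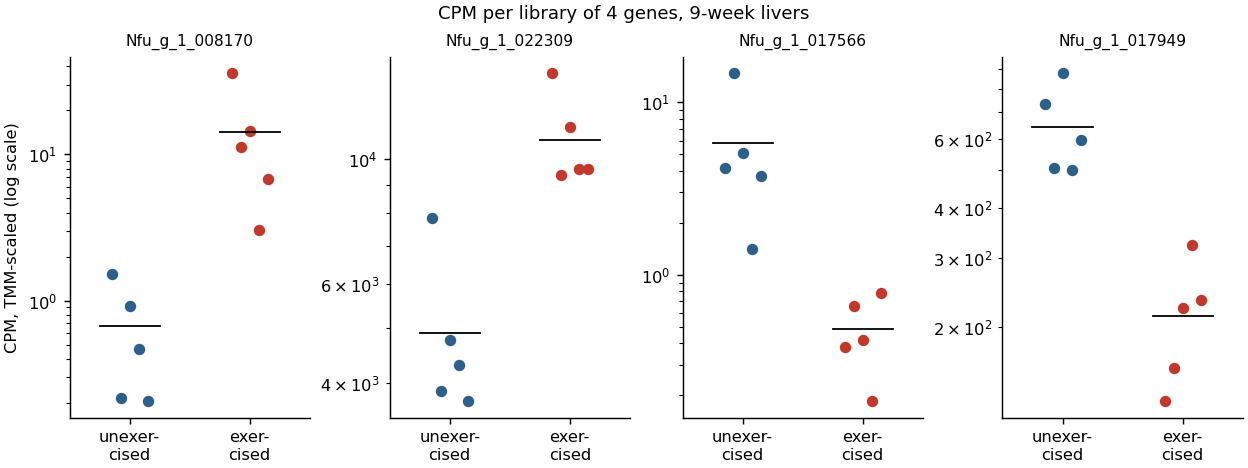
CPM (y, log scale, TMM-scaled) of the 4 genes in each 9-week library, 1 point per library with a line at the group mean. In each panel all 5 exercised libraries lie on one side of all 5 unexercised ones, which the choice of genes required. Single libraries stand out, such as exercised replicate 1 (35.8 CPM) for Nfu_g_1_008170 and unexercised replicate 2 (14.7 CPM) for Nfu_g_1_017566.

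The number of genes called changed strongly with the library left out. Leaving out exercised replicate 1, 2 or 3 left 177, 315 or 320 genes, and leaving out unexercised replicate 2, 3 or 5 left 702, 510 or 462. Genes with an unadjusted edgeR p under 0.05 changed less, with 3420 to 3852 in these fits against 4119 in the full fit. Without exercised replicate 5 the number of called genes rose to 1568 and without unexercised replicate 4 to 1493, the libraries that lay between the groups. Called in the full fit and in all 10 of these fits were 166 genes, of which 45 rose (median log2 fold change 0.78) and the others fell (median -1.31). No gene called in the full fit was called in the opposite direction in any of the other 21 fits run. All of them share libraries with the full fit, so this is no further test.

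The samples that entered the fit mattered as well. When all 20 libraries shared 1 estimate of the spread over 3 groups, 3 genes were called, Nfu_g_1_008170 among them (adjusted p = 0.0059), and 2045 had an unadjusted p under 0.05, against 4119 in the fit of the 10 libraries. The other 3 genes given by identifier were not called there (adjusted p from 0.13 to 0.39). When the 2 title runs at 27 weeks were separate groups, 1060 genes were called, 231 rises and 608 falls of them shared with the fit of the 9-week libraries. Of the called changes, 228 of 467 rises (48.8%) and 206 of 794 falls (25.9%) were under 1.5-fold, and 1 gene passed when the null was a fold of 1.5. That gene rose by 1.48 on the log2 scale at a mean of 6.88 CPM.

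**Figure D5:**
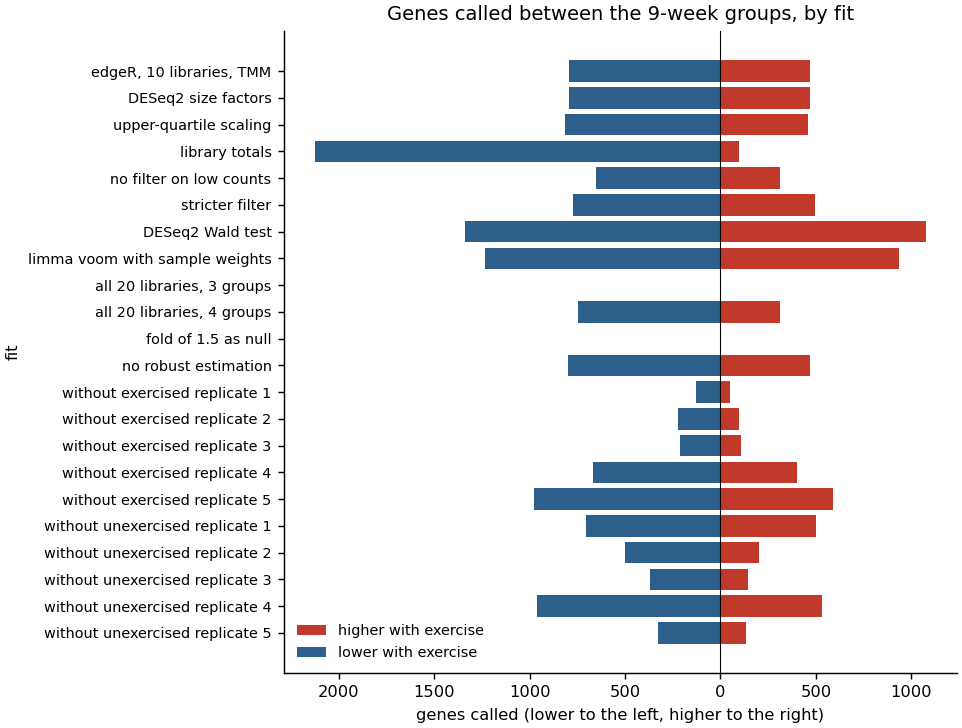
Genes called between the 9-week groups in each fit (x, lower to the left and higher to the right), with the fit of the 10 libraries at the top. The number runs from 1 against a fold of 1.5 and 3 with all libraries in 3 groups to 2415 with the DESeq2 Wald test, and from 177 to 1568 with 1 library left out.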

How the data were processed

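Total liver RNA was made into libraries with the TruSeq RNA kit v2, per the labels' protocols. The authors deposited raw counts per gene identifier, and STAR 2.4.1d and featureCounts 1.4.6-p4 are among the tools named in the submitters' processing notes. The build, strand setting and handling of multi-mapping reads were not given in the sources used here. Genes sharing reads with near-identical copies or overlapping genes are therefore uncertain. The deposited RPKM values were treated as a score, because library totals were cycled down the table, and this table gave lengths only. Over 3127 genes scoring above 5 in all 20 libraries, the implied gene length differed between libraries by at most 0.00475% (CV). Genes scoring under 1 in every library took their length from 1 library, with a score of at least 0.05.

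Counts passing filterByExpr entered edgeR 4.0.16 (R 4.3.3) with TMM, robust dispersions, the two-sided quasi-likelihood F-test and Benjamini-Hochberg adjustment over all genes tested. SEs derive from F; log2 CPM carries a prior count of 2. The method was tested on simulated data. That simulation drew each gene independently, so it does not cover variation shared between genes, such as that of the sets described above. Library measures used exact permutation tests, two-sided, whose smallest p is 0.0079. Alternatives were DESeq2 1.42.0, limma 3.58.1 voom, other scalings, filters and samples, and omission of each library. Gene lists and cell type markers needed symbols and were not run. Members, lists and the naming rule were chosen with earlier results of these data known, and the split at 2-fold after the fold changes were seen.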

Additional observations from a re-analysis of the deposited data

Results flagged for a closer look

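In 4 of 32 sets of 5 values, 1 library stood far outside the other 4. Chance gives this in about 1 of 20 independent sets. These sets share libraries and include genes picked from these data, so no excess over chance is read from the count. In exercised replicate 5 the 100 most abundant genes held 49.0% of counts, against 51.7% to 52.5% in the other exercised libraries. The Shannon entropy of its counts was 9.92 bits, against 9.62 to 9.69 bits in the other exercised libraries. Unexercised replicate 1 had 7864 CPM of Nfu_g_1_022309, against 3713 to 4771 CPM in the other unexercised libraries. Unexercised replicate 2 had 14.7 CPM of Nfu_g_1_017566, against 1.42 to 5.07 CPM.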

How the results depend on the processing

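Against 1261 called genes, library totals gave 2221, the DESeq2 Wald test 2415, limma voom 2170, all 20 libraries in 3 groups 3 and a fold of 1.5 as the null 1. The share of rises, 37.0%, became 4.28% with library totals, 32.2% without the filter, 44.6% with DESeq2, 43.0% with voom, and 66.7% and 29.3% with all 20 libraries in 3 and 4 groups. The median log2 fold change of the 100 most abundant genes, 0.31, became 0.07 with library totals. The values relative to all genes tested, 0.30 and 0.32, were nearly equal by construction. Without 1 library, called genes ran from 177 to 1568 and the share of rises from 27.8% to 41.5%. The median of the 100 most abundant genes then ran from 0.28 to 0.37. DESeq2 size factors, upper-quartile scaling, the other filters and non-robust dispersions gave 962 to 1271 genes. The causes were not tested. Each of the 4 named genes kept its direction in the other 21 fits. These fits reuse the libraries in which the genes were chosen for separate groups, so this is no further test. No paired analysis was possible because the labels give the 9-week groups no shared replicate numbers. Changes of low genes were the least precise. The median SE of a log2 fold change was 0.38 under 1 CPM and 0.20 at 1 to 10 CPM. It was 0.13 at 10 to 100 CPM and 0.17 in both classes above.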

Other observations

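The 12th most abundant gene, which passed no test between the groups, had 27506 CPM in exercised replicate 4 and 25250 CPM in unexercised replicate 4, against 2873 to 5441 CPM in the other 8 libraries. Among 6886 genes of at least 10 CPM, 4 had both of these libraries more than 3-fold above the other 8. Another 4 genes did so in exercised replicate 3 and unexercised replicate 2. These genes were picked after their values were seen.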
